A study of Mus musculus with 16 samples.

Results

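Heparan sulfate is a long sugar chain carried by proteins of the cell surface and the extracellular matrix, where its sulfate groups bind growth factors such as the FGFs and hold them near their receptors. The chain is polymerised in the Golgi by Ext1 and Ext2, Ndst enzymes then replace acetyl groups by sulfate, and O-sulfotransferases add sulfate at the 2-O (Hs2st1), 6-O (Hs6st1 and Hs6st2) and 3-O (Hs3st1) positions. Outside the cell, the endosulfatases Sulf1 and Sulf2 remove 6-O sulfate again, and in mice both polymerases and several of these enzymes are needed for normal development. The genes described here are these heparan sulfate polymerases, sulfotransferases and sulfatases, 10 in number, and every probe whose only annotated gene symbol is one of them was taken. Of the 10 genes, 9 had at least 1 such probe (22 probes in all) among the 18193 genes with a probe of their own, and Ndst1 is not analysed here. The set was chosen by the log2 signal of Hs6st2, which was lower after treatment, so for Hs6st2 the comparisons are given as a description without a test. The other members were chosen for their place in the pathway.

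Gene expression was measured with an Affymetrix mouse genome array in whole cochleae of the left ear of male DBA/2J mice, an inbred strain with early, progressive hearing loss that carries hearing-loss alleles of Cdh23 and Fscn2 in every group. The M+V group held 6 mice aged 12 weeks that had been given L-methionine (MET, 500 mg/kg) and valproic acid (VPA, 300 mg/kg) under the skin every day for 8 weeks. The control group held 5 mice of the same age that had been given the vehicle, 0.1 M sodium bicarbonate, over the same 8 weeks, and the 4 weeks group held 5 untreated mice aged 4 weeks. MET feeds the cell's methyl donor and VPA inhibits histone deacetylases. The comparison of M+V with control asks what the treatment altered at one age, and that of control with 4 weeks holds both age and the vehicle injections, which cannot be told apart. Values are log2 signals, in which a difference of 1 is a factor of 2. A gene is reported by its brightest tested probe, and a probe was tested if it reached its array's median signal (6.90) in every array of at least 1 group. This kept 15 of the 22 member probes and all 9 genes. Hs6st2 passed through the control and 4 weeks groups, since 4 of its 6 M+V arrays reached the median, whereas the reported probes of the other 8 genes were above the median in all 16 arrays.

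The tissue held the cochlear genes Coch (mean log2 signal 14.98 in M+V, 14.94 in control and 15.14 at 4 weeks) and Otos (14.51, 14.54 and 14.79 in the same groups). Of 10 tested cochlea genes (of 14 listed), 9 were above 0 for M+V against control, where 45.1% of all genes were below 0. For control against 4 weeks 8 were below 0, where 48% of all genes were, among them Otor (-0.70) and Tectb (-0.42). None of the 10 passed the test in limma in either comparison, where 0% and 1.45% of all genes did. Of the hair cell genes, Myo7a passed the filter (8.22 in M+V, 8.13 in control and 7.90 at 4 weeks), whereas Slc26a5 and Pou4f3 did not. In such bulk tissue, fewer cells of a type and less RNA per cell cannot be told apart. A few features of the arrays moved with the groups. The bioB hybridisation control, a bacterial transcript added in a fixed amount, was at a high level (8.91 to 9.62) in M+V replicates 1 and 2, control replicate 1 and all 5 arrays at 4 weeks, and at a low level (5.73 to 6.08) in the other 8 arrays. The mean over genes of brain neurons, oligodendrocytes and astrocytes, called the brain gene mean, ranged from 8.56 to 9.70 in M+V, from 8.99 to 9.98 in control and from 9.24 to 9.49 at 4 weeks. These lists are not specific to brain. Gjb6 is on both the cochlea and the astrocyte list, and the cochlea has neurons of its own in the spiral ganglion. All 6 tested neuronal genes (of 14 listed) and 6 of 7 tested oligodendrocyte genes (of 10) were lower in M+V than in control. Their medians were -0.51 and -0.45, where 45.1% of all genes were below 0. Of the 9 astrocyte genes, 6 were lower (median -0.11). None of these genes passed the test in limma, where 0% of all genes did. At an unadjusted p under 0.05 in limma there were 4 neuronal, 3 oligodendrocyte and 2 astrocyte genes, where 8.82% of all genes reached that level. Of the tested neuronal genes, Scn1a and Cacnb4 were already listed by the paper as lower in M+V than in control. So were Fstl5, Gabrb2 and Kcnd2, which enter the mean only. M+V replicate 1 stood apart with a blood and marrow mean of 9.50, against 10.91 to 11.95 in the other arrays.

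The stretches of 250 bases before the transcription start are shown for the pair of 6-O-sulfotransferases, which includes the gene that chose the set, and for Sulf2, the tested member with the smallest p value for M+V against control. CpG dinucleotides, the sites of DNA methylation in mammals, are in capitals, and the sequences are from RefSeq (build GRCm38.p6), 5′ to 3′ on the strand of the gene. They lie at chrX:51681603-51681852 (minus strand) for the outer start of Hs6st2, chr1:36068150-36068399 (plus strand) for Hs6st1 and chr2:166155684-166155933 (minus strand) for the outer start of Sulf2.
Hs6st2: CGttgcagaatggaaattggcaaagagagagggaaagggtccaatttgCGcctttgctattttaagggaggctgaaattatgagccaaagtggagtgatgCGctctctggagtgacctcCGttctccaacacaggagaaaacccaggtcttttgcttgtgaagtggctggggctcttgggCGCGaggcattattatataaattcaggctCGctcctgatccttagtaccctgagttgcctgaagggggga
Hs6st1: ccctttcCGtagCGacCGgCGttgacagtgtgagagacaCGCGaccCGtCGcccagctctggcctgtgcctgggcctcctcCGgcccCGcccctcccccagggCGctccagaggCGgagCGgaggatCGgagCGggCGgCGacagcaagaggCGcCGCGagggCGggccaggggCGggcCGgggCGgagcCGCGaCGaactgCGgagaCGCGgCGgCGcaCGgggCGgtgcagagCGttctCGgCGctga
Sulf2: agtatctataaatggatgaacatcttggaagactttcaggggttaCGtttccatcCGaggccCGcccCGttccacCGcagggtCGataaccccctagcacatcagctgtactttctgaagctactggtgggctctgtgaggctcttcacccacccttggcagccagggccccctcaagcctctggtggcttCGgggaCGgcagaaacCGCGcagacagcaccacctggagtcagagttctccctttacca
The Hs6st2 stretch held 7 CpGs, a number reached by 46.3% of the 32851 RefSeq promoter windows of the same length, and a TATAAA motif 55 bases before the start. The Hs6st1 stretch held 37 CpGs, a number reached by 2.2% of all windows, with GGGCGG and without TATAAA. The Sulf2 stretch held 10 CpGs, with GGGCGG and with TATAAA 244 bases before the start. Searched on both strands, TATAAA was in 12.4% and GGGCGG in 32.7% of all windows, and each GGGCGG also counts as a CpG. A second, inner start is annotated for Hs6st2 with 26 CpGs and for Sulf2 with 21. Ext2 had 12 CpGs, Ndst2 15, Hs3st1 19 and Hs2st1 21, so that the 9 windows of 7 member genes had a median of 19, against 6 over all windows. DNA methylation was not measured, and these are descriptions of sequence only.

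Among the 8 member genes that could be tested for M+V against control, none passed an adjusted p of 0.05 in limma, as for all genes (0%). At an unadjusted p under 0.05 in limma there was 1, Sulf2, where 8.82% of all genes reached that level. The methods' t-test, here at an adjusted p under 0.05, called none either, as for all genes (0%). The paper's own rule, an unadjusted p under 0.05 with a ratio over 1.5, was not applied to the members here. The log2 differences of the 8 genes had a median of 0.13 (6 above and 2 below 0), against 0.02 over all 11457 genes tested, of which 45.1% were below 0. For M+V against 4 weeks none of the 8 passed, where 4.93% of all genes did, and 2 (Hs2st1 and Sulf2) had an unadjusted p under 0.05, as did 22.1% of all genes. For control against 4 weeks none of 9 passed (Hs6st2 among them, although its control arrays entered the choice), where 1.45% of all genes did, and 1 (Hs2st1) had an unadjusted p under 0.05, as did 13.9% of all genes. The members' medians in these comparisons were -0.13 and -0.21, with 7 of 8 and 7 of 9 genes below 0, against medians of 0.03 and 0.01 and shares of 45% and 48% below 0 over all genes. These counts were not the same in a fit with the bioB level, which was high in all arrays at 4 weeks. With it as a block, Ext1, Ext2, Ndst2, Hs3st1 and Sulf1 were above 0 for M+V against 4 weeks (0.06 to 0.15), and Hs2st1, Hs6st1 and Sulf2 below. Control against 4 weeks then gave -0.18 to 0.02, apart from Hs6st2 (0.63). The high level holds 1 control array. In that level control was below 4 weeks in Ext1 (-0.46), Ext2 (-0.49), Ndst2 (-0.18), Hs2st1 (-0.17), Hs6st1 (-0.22) and Sulf1 (-0.10). Control was above 4 weeks there in Hs6st2 (1.29), Hs3st1 (0.14) and Sulf2 (0.12). For the other control arrays the level cannot be told apart from age and vehicle. The methods' t-test, at an adjusted p under 0.05, called no member in these comparisons either. It called 1.25% of all genes for M+V against 4 weeks and 0.969% for control against 4 weeks. The 3 comparisons share arrays, so their values are not independent of each other.

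**Figure D1:**
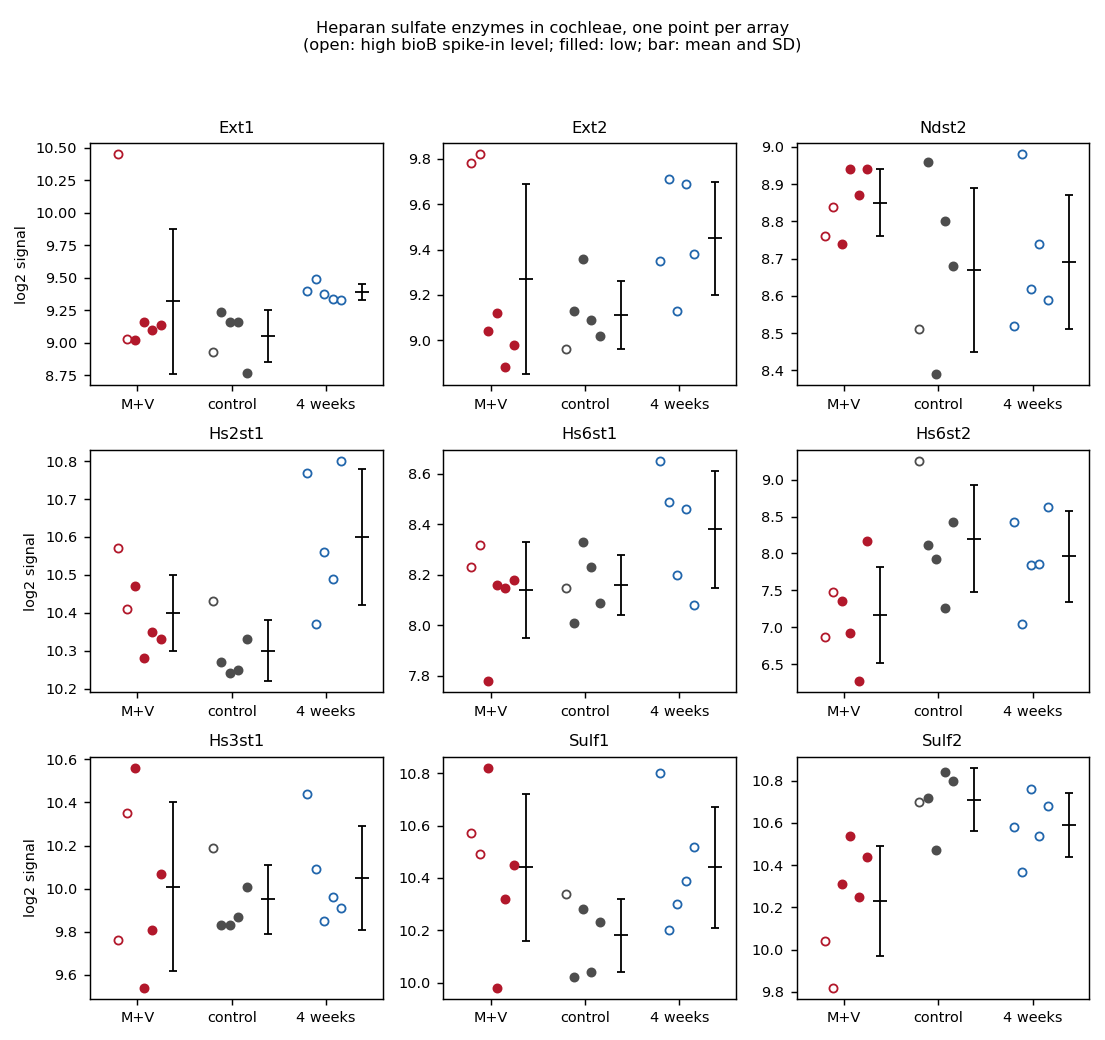
Log2 signal (vertical axis) of the reported probe of each of the 9 genes in M+V, control and 4 weeks cochleae, 1 point per array, with the group's mean and SD at its right. Open points have the high bioB level, and the vertical scale differs between panels. Hs6st2 is lowest in M+V (7.17 against 8.20 in control), as is Sulf2 (10.23 against 10.71), and 1 M+V array lies far above the rest for Ext1.

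The polymerases Ext1 and Ext2 form 1 complex that lengthens the chain. Ext1 signals in M+V ran from 9.02 to 10.45 with a median of 9.12. In control they were 8.93, 9.24, 9.16, 9.16 and 8.77, and at 4 weeks 9.40, 9.49, 9.38, 9.34 and 9.33. The highest M+V value belongs to replicate 1, the array with the low blood and marrow mean, and the other 5 M+V arrays lay between 9.02 and 9.16, below every array at 4 weeks. Ext1 differed by 0.26 (SE 0.20, adjusted p = 0.689 in limma) between M+V and control and by 0.04 without M+V replicate 1. All 5 control arrays were below all 5 arrays at 4 weeks, a pattern found in 3.71% of all genes in this direction. The difference was -0.34 (SE 0.21, adjusted p = 0.514 in limma), and the exact two-sided permutation p was 0.00794, the smallest that 5 arrays against 5 allow. With the bioB level as a block it was -0.07 (95% interval -0.64 to 0.50). That fit draws the effect of the level from the M+V arrays too, which averaged 9.74 at the high level and 9.10 at the low one. Among arrays of the high level alone, control and 4 weeks differed by -0.46 (1 control array, 8.93 against a mean of 9.39). For 4 of the 5 control arrays the bioB level cannot be told apart from age and vehicle.

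Ext2 had M+V signals of 8.88 to 9.82 with a median of 9.08. The control signals were 8.96, 9.13, 9.36, 9.09 and 9.02, and those at 4 weeks were 9.35, 9.71, 9.13, 9.69 and 9.38. The 2 highest M+V arrays, replicates 1 and 2 at 9.78 and 9.82, were those with the high bioB level, and the other 4 lay between 8.88 and 9.12. The differences were 0.16 (SE 0.17, adjusted p = 0.787 in limma) for M+V against control, -0.18 for M+V against 4 weeks and -0.34 (SE 0.18, adjusted p = 0.424) for control against 4 weeks. Among arrays of the low bioB level, the difference was -0.15, so the sign for M+V against control turned. With the level as a block the control and 4 weeks groups differed by 0.00 (95% interval -0.44 to 0.44), in a fit that draws the level's effect from the M+V arrays too. Among arrays of the high level alone they differed by -0.49 (1 control array, 8.96 against a mean of 9.45).

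Ndst2 is a bifunctional enzyme that removes acetyl groups from the chain and adds N-sulfate, best known in mice for the heparin of mast cells. Its M+V signals ran from 8.74 to 8.94 with a median of 8.85. In control they were 8.51, 8.96, 8.39, 8.80 and 8.68, and at 4 weeks 8.52, 8.98, 8.62, 8.74 and 8.59. The M+V arrays sat in a narrow band inside the range of control. The differences were 0.18 (95% interval -0.04 to 0.41, adjusted p = 0.584 in limma) for M+V against control, 0.16 (adjusted p = 0.401) for M+V against 4 weeks and -0.02 (adjusted p = 0.957) for control against 4 weeks.

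Hs2st1, the only known 2-O-sulfotransferase of heparan sulfate in mammals, had M+V signals of 10.28 to 10.57 with a median of 10.38. In control its signals were 10.43, 10.27, 10.24, 10.25 and 10.33, and at 4 weeks 10.77, 10.37, 10.56, 10.49 and 10.80. Of the 5 control arrays, 4 lay below every array at 4 weeks, and replicate 1, the control array with the high bioB level, lay above 1 of them. The control and 4 weeks groups differed by -0.29 (95% interval -0.49 to -0.10, unadjusted p = 0.0056 and adjusted p = 0.147 in limma), with an exact permutation p of 0.0159. With the bioB level as a block the difference was -0.18 (95% interval -0.42 to 0.06). M+V and control differed by 0.10 (SE 0.09, adjusted p = 0.735), and M+V and 4 weeks by -0.20 (SE 0.09, adjusted p = 0.206). The gene has 3 more tested probes, and for control against 4 weeks these differed by -0.11, 0.09 and 0.01 (adjusted p = 0.767, 0.824 and 0.983 in limma). With the bioB level as a block the same probes differed by -0.16, 0.29 and -0.34, so the probes of the gene did not all go the same way.

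Hs6st1 and Hs6st2 transfer sulfate to the same 6-O position, Hs6st1 being the widely expressed enzyme and Hs6st2 the one with restricted expression, prominent in brain. Hs6st1 signals in M+V ran from 7.78 to 8.32 with a median of 8.17. In control they were 8.15, 8.01, 8.33, 8.23 and 8.09, and at 4 weeks 8.65, 8.49, 8.20, 8.46 and 8.08. The groups overlapped, and 5 of the 6 M+V arrays fell inside the control range. M+V and control differed by -0.02 (SE 0.11, adjusted p = 0.961 in limma), with a 95% interval of -0.26 to 0.22. M+V and 4 weeks differed by -0.24 (adjusted p = 0.23), and control and 4 weeks by -0.21 (adjusted p = 0.449).

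Hs6st2 signals, which chose the set, were 6.86, 7.48, 7.35, 6.92, 6.27 and 8.17 in M+V replicates 1 to 6. They were 9.25, 8.11, 7.93, 7.26 and 8.43 in control, and 8.43, 7.04, 7.84, 7.85 and 8.63 at 4 weeks. The M+V arrays averaged 7.17 ± 0.65 (SD, n = 6), the control arrays 8.20 ± 0.73 (n = 5) and the 4 weeks arrays 7.96 ± 0.62 (n = 5), in each group the widest spread of any reported member. Of the M+V arrays, 3 lay below every control array and 3 lay within the control range, and replicate 6 was above 3 of the control arrays. The log2 difference between the means was -1.02, a signal 2.03-fold lower in M+V than in control, and it was -0.78 (1.72-fold lower) against 4 weeks. Leaving out 1 array at a time gave -1.26 to -0.76 for M+V against control. Control and 4 weeks, a comparison that shares the control arrays with the choice, differed by 0.24, and by -0.03 without control replicate 1. Within the low bioB level, 4 M+V arrays averaged 7.18 and 4 control arrays 7.93, a difference of -0.76. The gene's 3 other probes never reached the array median in any array, with group means between 1.97 and 4.36, and their differences between M+V and control were -0.79, -0.49 and -0.40. Between M+V and 4 weeks the same probes differed by 1.54, 0.20 and -0.60, so 2 of them went against the reported probe, and between control and 4 weeks by 2.32, 0.69 and -0.19.

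**Figure D2:**
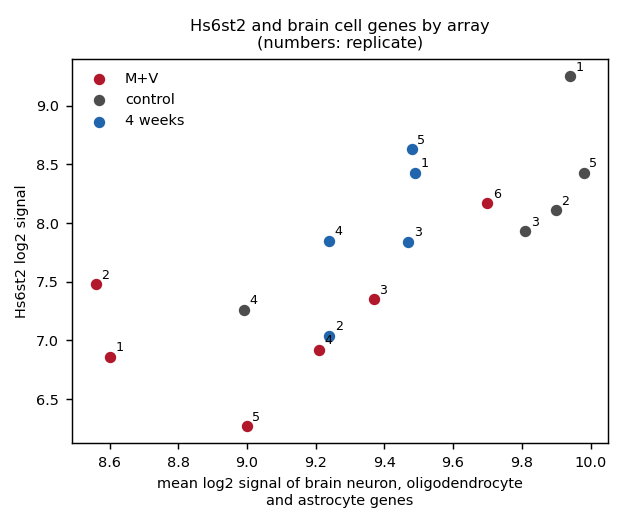
Log2 signal of Hs6st2 (vertical axis) against the mean log2 signal of the brain neuron, oligodendrocyte and astrocyte genes (horizontal axis) in each array, coloured by group and numbered by replicate. M+V replicate 6 has the highest value of its group in both (8.17 and 9.70), whereas M+V replicate 5 has the lowest Hs6st2 signal (6.27) but not the lowest brain mean and replicate 2 the lowest brain mean (8.56) at an Hs6st2 signal of 7.48.

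The brain gene mean was lower in M+V than in control, as was Hs6st2, and within groups the order of the arrays in the plot of Hs6st2 against brain genes matched only in part. M+V replicate 6 was highest and control replicate 4 lowest of their groups in both measures, but the lowest M+V arrays differed (replicate 5 for Hs6st2, replicate 2 for the brain mean), as did the highest control arrays (replicate 1 for Hs6st2, replicate 5 for the brain mean). Over the 16 arrays, the Pearson correlations with Hs6st2 of single tested genes behind the brain gene mean ran from -0.07 for Agt to 0.80 for Aqp4. Values were near 0 for Calb1 (0.02), Slc1a3 (0.04), S100b (0.07) and Cldn11 (0.07), and whether brain or cochlear cells gave these signals was not tested. With the brain gene mean as a covariate in the same model, the difference between M+V and control was -0.32 and that between M+V and 4 weeks -0.45. The paper lists Fstl5, Gabrb2, Kcnd2, Scn1a and Cacnb4, which are part of this mean, as lower in M+V than in control. Hs6st2 was chosen on the same comparison, so a smaller difference with this covariate was partly set in advance. A part of nerve tissue, from brain or from the cochlea, in the Hs6st2 values was not tested otherwise. The 5 genes whose reported probes were most like Hs6st2 over the 16 arrays, by Pearson correlation among 11456 genes, were Nkain2 (0.88), Sema3c (0.87), Pkia (0.86), Negr1 (0.84) and Tmeff1 (0.84). After the group means were taken out, the same correlations were 0.87, 0.88, 0.84, 0.73 and 0.81, and these arrays share their groups and tissue composition. Negr1 averaged 7.07 in M+V, 7.85 in control and 7.71 at 4 weeks, and Sema3c, a secreted semaphorin, 8.44, 8.75 and 8.92 in the same groups. These 5 were picked as the highest, so every other gene is lower by that choice. Over all arrays the correlations of the other members with Hs6st2 ran from -0.57 (Ndst2) to 0.53 (Sulf2). After group means these were -0.40 and 0.15, with the highest values then at Hs2st1 (0.55), Sulf1 (0.53) and Hs3st1 (0.45).

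Hs3st1 adds the 3-O sulfate that makes the antithrombin-binding site of heparin. In M+V its signals ran from 9.54 to 10.56 with a median of 9.94. The control signals were 10.19, 9.83, 9.83, 9.87 and 10.01, and those at 4 weeks 10.44, 10.09, 9.85, 9.96 and 9.91. The M+V arrays spread over a wider range than either other group, with 3 below and 2 above every control array. The differences were 0.07 (95% interval -0.28 to 0.41, adjusted p = 0.918 in limma) for M+V against control, -0.04 for M+V against 4 weeks and -0.10 for control against 4 weeks.

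Of the extracellular sulfatases, Sulf1 had M+V signals of 9.98 to 10.82 with a median of 10.47. In control they were 10.34, 10.02, 10.28, 10.04 and 10.23, and at 4 weeks 10.80, 10.20, 10.30, 10.39 and 10.52. Of the 6 M+V arrays, 4 were above every control array and 1, replicate 4, was below every one. M+V and control differed by 0.26 (SE 0.14, adjusted p = 0.552 in limma) at this probe and by 0.23 (adjusted p = 0.6) at the second tested probe of the gene. M+V and 4 weeks differed by -0.00 (SE 0.14), and control and 4 weeks by -0.26 (SE 0.14, adjusted p = 0.438).

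Sulf2 had 3 tested probes, which did not all go the same way. At the reported probe, 1447602_x_at, the M+V signals were 10.04, 9.82, 10.31, 10.54, 10.25 and 10.44. The control signals were 10.70, 10.72, 10.47, 10.84 and 10.80, and those at 4 weeks 10.58, 10.37, 10.76, 10.54 and 10.68. Of the 6 M+V arrays, 5 lay below every control array, and only replicate 4 overlapped, with control replicate 3. The log2 difference between M+V and control was -0.47 (SE 0.12, 95% interval -0.73 to -0.22), 1.39-fold lower in M+V, with an unadjusted p of 0.00111 and an adjusted p of 0.365 in limma and an exact permutation p of 0.00866. Against 4 weeks it was -0.35 (SE 0.12, adjusted p = 0.0956, exact permutation p = 0.026), and 4 of the 6 M+V arrays lay below every array at 4 weeks. Control and 4 weeks differed by 0.12 (SE 0.13, adjusted p = 0.731).

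The result for Sulf2 against 4 weeks was not the same with the bioB level in the fit. With that level as a block, the difference between M+V and 4 weeks at the reported probe was -0.54 (SE 0.13, 95% interval -0.82 to -0.26) and passed the test (adjusted p = 0.0252 in limma), as did 6.55% of all genes tested, 3.33% of all genes tested being called lower. Sulf2 was then the only tested member that passed. Between M+V and control the blocked difference was -0.44 (SE 0.11, adjusted p = 0.334), and in the arrays of the low level alone M+V averaged 10.38 and control 10.71, a difference of -0.32. With the brain gene mean as a covariate, M+V and control differed by -0.30 (SE 0.14). That mean includes genes that the paper lists as lower in M+V than in control. The lowest M+V arrays, replicates 1 and 2, were also those with the lowest brain gene means (8.60 and 8.56), and a part of tissue composition in the Sulf2 values was not tested otherwise.

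At the second Sulf2 probe, 1430388_a_at, M+V averaged 8.06, control 8.45 and 4 weeks 8.42. It differed in the same direction as the reported probe, by -0.39 (SE 0.16, adjusted p = 0.48 in limma) between M+V and control and by -0.37 (adjusted p = 0.203) between M+V and 4 weeks. With the bioB level as a block, M+V and 4 weeks differed by -0.63 at this probe (adjusted p = 0.0475 in limma), and 6.67% of all probes passed. The third probe, 1442408_at, went another way, with a mean of 8.32 in M+V, 8.05 in control and 8.49 at 4 weeks. Its control signals were 7.87, 7.94, 8.26, 8.11 and 8.07, and those at 4 weeks were 8.59, 8.52, 8.41, 8.44 and 8.48. All 5 control arrays were therefore below all arrays at 4 weeks, as at 3.65% of all tested probes in this direction, by -0.44 (SE 0.13, unadjusted p = 0.00459 and adjusted p = 0.135 in limma), and M+V was above control by 0.27 (SE 0.13, adjusted p = 0.514). With the bioB level as a block, control and 4 weeks differed by -0.33 (95% interval -0.71 to 0.04), and M+V and 4 weeks by -0.08 (adjusted p = 0.784). The letter x in the name of the reported probe marks a set of oligonucleotides some of which may match other transcripts, and which transcripts of Sulf2 each probe reads was not tested.

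**Figure D3:**
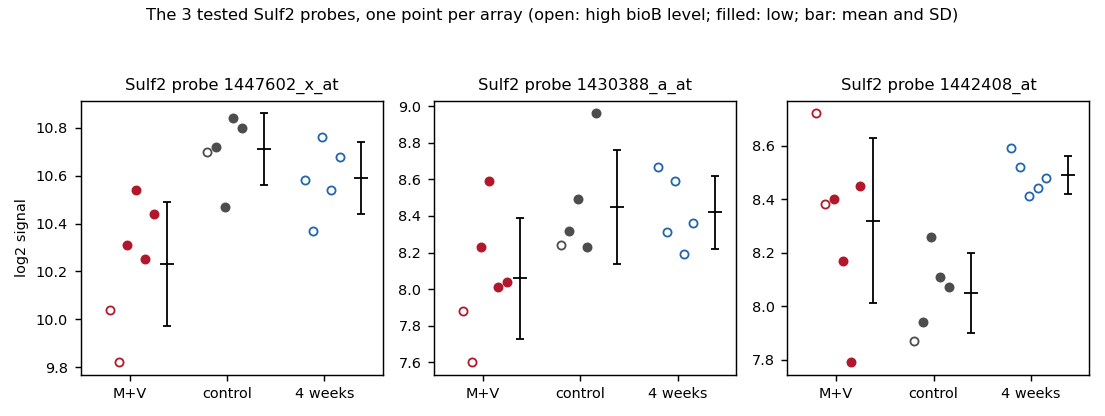
Log2 signal (vertical axis) of the 3 tested Sulf2 probes in M+V, control and 4 weeks cochleae, 1 point per array, with mean and SD beside each group and open points for the high bioB level. The first and second probes are lowest in M+V (means 10.23 and 8.06), whereas the third is lowest in control (8.05).

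**Figure D4:**
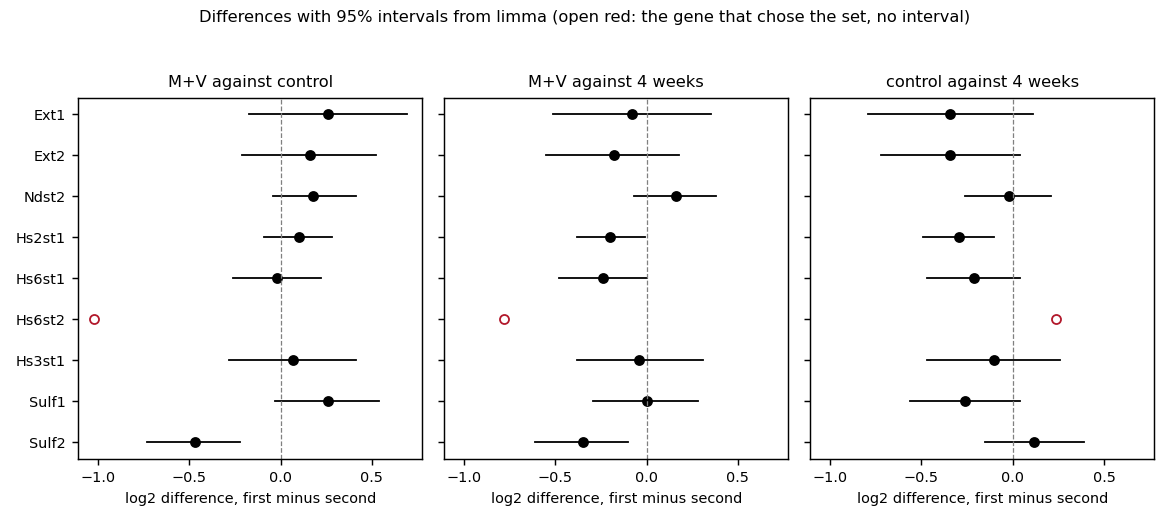
Log2 difference (horizontal axis, first group minus second) with its 95% interval from limma for the reported probe of each gene, in 1 panel per comparison. Hs6st2, which chose the set, is an open point without an interval. In M+V against control, the interval of Sulf2 lies below 0 and those of the other 7 tested genes hold 0.

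The genes around the members in the pathway were also compared between M+V and control, where 0% of all genes passed. None of the 6 tested other chain enzymes (of 15 listed), 12 linkage and sulfate donor genes (of 14), 12 core proteins (of 14), 7 lysosomal enzymes (of 8) and 12 chondroitin and dermatan sulfate enzymes (of 16) passed the test in limma in that comparison, nor did any of 13 FGF genes (of 22). The medians of the lists lay between 0.00 and 0.15, and single tested genes ran from -0.69 to 0.56. At an unadjusted p under 0.05 in limma there were 2 genes, Papss2 and Naglu, where 8.82% of all genes reached that level. Papss2, which makes the sulfate donor that every sulfotransferase uses, averaged 10.02 in M+V and 9.69 in control (difference 0.33, adjusted p = 0.492). Naglu, a lysosomal enzyme that degrades heparan sulfate, averaged 8.37 in M+V and 7.90 in control (0.47, adjusted p = 0.441). Extl2, a relative of the polymerases, had the largest difference among the 6 tested other chain enzymes, with 10.63 in M+V and 10.92 in control (-0.29, adjusted p = 0.577).

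Against 4 weeks, single genes of these lists passed, where 4.93% of all genes passed for M+V and 1.45% for control. For M+V these were 1 of 12 core proteins, 1 of 12 chondroitin and dermatan sulfate enzymes and 1 of 13 FGF genes. For control they were 1 of 12 core proteins and 1 of 13 FGF genes. Gpc6, a glypican that carries the chains on the cell surface, fell by 0.60 in M+V (9.66, against 10.26 at 4 weeks, SE 0.14, adjusted p = 0.0231 in limma), and Gpc3, another glypican, fell by 0.75 in control (8.11, against 8.86 at 4 weeks, SE 0.16, adjusted p = 0.0295). The receptor Fgfr2, which needs heparan sulfate to bind its ligands, fell by 0.49 in control (10.87, against 11.37, SE 0.09, adjusted p = 0.0138). Fgf13, an intracellular relative of the FGFs that acts on sodium channels, fell by 1.30 in M+V (8.37, against 9.67, SE 0.28, adjusted p = 0.0133), and Chst13, a chondroitin sulfotransferase, rose by 0.82 (8.24, against 7.42, SE 0.23, adjusted p = 0.0455). In the other group aged 12 weeks each had the same sign without passing. These were Gpc3 (-0.49) and Fgfr2 (-0.31) in M+V, and Gpc6 (-0.31), Fgf13 (-0.87) and Chst13 (0.56) in control. The bioB level, high in all arrays at 4 weeks, was not taken into account for these genes. Heparanase (Hpse), which cuts the chain outside the cell, averaged 11.40 in M+V, 11.25 in control and 10.90 at 4 weeks, and the difference of 0.50 between M+V and 4 weeks did not pass (adjusted p = 0.0503). Glce, the epimerase that acts between the Ndst enzymes and Hs2st1, averaged 9.35 in control and 9.61 at 4 weeks (-0.26, adjusted p = 0.215). Over the same comparisons, 13 of 14 tested cartilage and bone genes were below 0 in M+V and 13 in control against 4 weeks, with medians of -1.06 and -1.05. Of these, 11 and 9 passed the test, where 4.93% and 1.45% of all genes did. The part of these tissues in the glypican values was not tested.

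**Figure D5:**
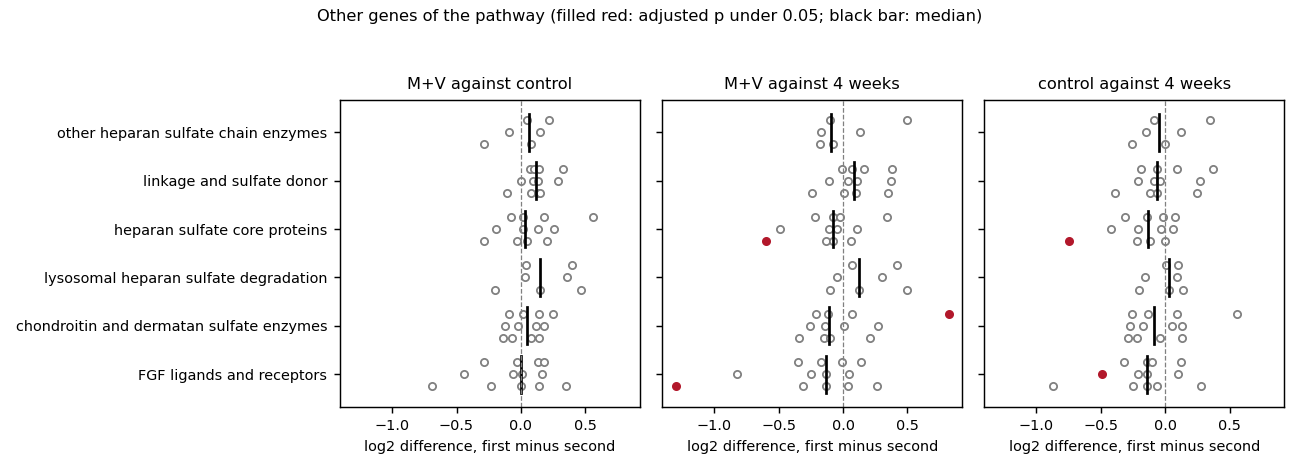
Log2 differences (horizontal axis, first group minus second) of the tested genes of 6 lists around the pathway, 1 point per gene, with the list's median as a black bar and genes past an adjusted p of 0.05 filled in red. No gene is filled in M+V against control, 3 are in M+V against 4 weeks and 2 in control against 4 weeks, where 0%, 4.93% and 1.45% of all genes passed.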

How the data were processed

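The values used are signals on the log2 scale as deposited by the authors, who extracted them with GCOS and the MAS5 algorithm (versions not given in the sources used here) and quantile-normalized them over all 16 arrays; sorted values were identical across arrays. Signals under 1 were set to 1 (0.869% of values). Probes were named from the platform annotation, and the 22 member probes matched RefSeq gene identifiers with 0 symbols changed. A model with 1 mean per group was fitted to the 21391 tested probes with limma 3.58.1 in R 4.3.3 (two-sided, Benjamini-Hochberg over tested probes, threshold 0.05). A filter at the 50th percentile stood in place of the MAS5 present calls. The methods' t-test, with the same adjustment and threshold, was an alternative. Scripts were tested on simulated data. Named are all members by their brightest tested probe and the 5 genes most like Hs6st2. Per pathway list, up to 3 genes with the largest moderated statistic for control against 4 weeks and up to 2 for M+V against control are named. Genes of the cell type lists were named outside this rule. The members and lists were chosen with earlier results of these data known. Each array is 1 mouse, and the number of arrays limits the precision. Alternatives were cyclic loess, no floor, a pseudocount of 32, the filter left out or set to the 25th or 75th percentile, only the groups compared, array weights, a replicate block, the bioB level as a block or 1 level alone, covariates for the Gapdh 3'/5' difference and the brain gene mean, the next brightest probe and leaving out each array.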

Additional observations from a re-analysis of the deposited data

Results flagged for a closer look

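In 3 of the 45 groups of arrays looked at (15 tested member probes in 3 groups), 1 array lay further from the rest than Dixon's 95% limit, and chance flags about 1 in 20. For Ext1, M+V replicate 1 was highest at 10.45, against 9.02 to 9.16 in the other 5. For Hs6st1, M+V replicate 3 was lowest at 7.78, against 8.15 to 8.32. For the Hs2st1 probe 1422739_at, control replicate 1 was highest at 8.23, against 7.82 to 7.91. M+V replicate 1 and control replicate 1 have the high bioB level and M+V replicate 3 the low one.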

How the results depend on the processing

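No tested member passed for M+V against control or for control against 4 weeks under any alternative run, nor in any fit that left out 1 array (0 to 0 in all 3 comparisons). For M+V against 4 weeks, 1 member passed with the bioB level as a block (Sulf2, -0.54, adjusted p = 0.0252 in limma), where 6.55% of all genes did. In the arrays of the high level alone 1 passed (Sulf2, -0.65, adjusted p = 0.0394 in limma, with 2 M+V arrays), where 1039 of 21391 probes did. Both fits hold those arrays, M+V replicates 1 and 2, which had the lowest Sulf2 signals (10.04 and 9.82), so they are not independent. Hs6st2 between M+V and control moved to -0.32 with the brain gene mean as a covariate, a mean that includes genes the paper lists for the same comparison. Of 378 values under the other alternatives, 354 were counted as the same and 21 changed sign. The same means that a value kept its direction and its side of the threshold. For Hs6st2 in the comparisons with M+V, which have no test, it means a change smaller than the pooled SD of the groups compared.

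The bioB block changed the sign for M+V against 4 weeks in Ext1 (0.15), Ext2 (0.10), Hs3st1 (0.06) and Sulf1 (0.10), and for control against 4 weeks in Ext2 (0.00), Hs3st1 (0.02) and Sulf2 (-0.11). With 1 level alone the sign changed in Ext2 for M+V against control (-0.15), in Ext1 (0.35), Ext2 (0.35), Hs3st1 (0.00) and Sulf1 (0.09) for M+V against 4 weeks, and in Hs3st1 for control against 4 weeks (0.14, with 1 control array). Ext2 between M+V and control was -0.05 with array weights and -0.18 with the brain covariate, which gave -0.01 for Ext1; the same covariate gave -0.12 for Hs6st2 between control and 4 weeks. Sulf1 between M+V and 4 weeks was 0.00 with cyclic loess, 0.01 with the Gapdh covariate, 0.03 with the brain covariate and 0.05 at its next probe. The cause of these changes was not tested. The filter at the 75th percentile left no probe of Ndst2, Hs6st1 and Hs6st2 to test.

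Leaving out 1 array changed the sign of differences near 0: -0.06 to 0.05 for Hs6st1 and -0.04 to 0.16 for Hs3st1 (M+V against control), -0.15 to 0.06 for Hs3st1 and -0.08 to 0.09 for Sulf1 (M+V against 4 weeks), and -0.10 to 0.05 for Ndst2 and -0.03 to 0.47 for Hs6st2 (control against 4 weeks). Ext1 between M+V and control was 0.04 to 0.32. Residuals of arrays that share a replicate number across groups correlated with a median of 0.0126 (15 pairs, 6 over 0.1), and 4 of 16 arrays correlated best with their own number. The numbers were therefore not taken as pairs. With the replicate number as a block, 0 members passed in each comparison.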
